A study of Mus musculus with 2 samples.

Results

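The 70 genes described here encode deubiquitinating enzymes, the proteases that take ubiquitin off other proteins. They were chosen by symbol from the probe sets that name exactly 1 gene, and they are 70 of the 18193 genes with such a probe set. The rule took the ubiquitin-specific proteases with a numbered Usp symbol (except the interferon-induced Usp18), the Otud and Uchl genes, and Otub1, Otub2, Bap1, Atxn3, Josd2, Stambp, Stambpl1, Brcc3, Yod1, Zranb1 and Vcpip1; Josd1, also in the rule, is not analysed here. It also took Usp6nl by its symbol, although that gene encodes a Rab GTPase-activating protein and no deubiquitinase, so it is kept apart in the family accounts. The 70 genes had 175 probe sets, and all 70 symbols matched a current mouse gene record.

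The first group was a culture of unsorted bone marrow cells from Cpdm mice, measured on 1 Affymetrix array, and it was set against the same kind of culture from wildtype mice, also on 1 array. Cpdm is the chronic proliferative dermatitis mutation, a spontaneous frameshift in Sharpin that the mice carry in all tissues. Sharpin encodes a subunit of the complex that builds linear ubiquitin chains downstream of the TNF receptor. Cells of both genotypes grew for 10 days in medium that held β-glycerophosphate at 10 mM and ascorbic acid at 50 µg/ml, the usual means of turning stromal cells of marrow into bone-forming osteoblasts. The study's title places the question in the differentiation and cytokine output of mesenchymal marrow cells. The sources used here state no age, no sex and no count of mice for either culture. No culture was repeated, so no p-value can be given and each difference describes these 2 arrays alone.

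Ubiquitin is joined to proteins by a cascade of activating, conjugating and ligating enzymes, and deubiquitinases reverse that step or trim the chains. They recycle ubiquitin at the proteasome, spare proteins from degradation, and shut off signals that run through ubiquitin chains, such as those from the TNF receptor to NF-κB. Structural families are told apart by their catalytic fold. The USP, OTU, UCH and Josephin families are cysteine proteases, and the JAMM family are zinc metalloproteases.

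Signals are the deposited MAS5 intensities, scaled per array by the authors. A signal below the 40th percentile of an array's probe sets, 18.5 for Cpdm and 18.7 for wildtype, was raised to that floor, and a gene counted as measured if its brightest probe set reached the floor in at least 1 array. Log2 ratios are Cpdm over wildtype for that brightest probe set. Where 1 array lay below the floor the fold is a bound, written "at least". Among genes with several probe sets, the disagreement between probe sets gave an SD of 0.32 log2 units per probe set (5250 genes), and 18 spike-in controls spread with an SD of 0.11 around 0.01. Sharpin itself, whose transcript a frameshift need not remove, read 162 in Cpdm and 197 in wildtype, so it does not check the labels.

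Of the 70 genes taken by the rule, Usp6nl among them, 65 were measured, 59 of them in both arrays. In Cpdm, Uchl1, Usp54 and Usp21 were higher by 2-fold or more and Otub2 was lower by 2-fold or more, while 61 members lay within 2-fold, as did 12394 of all 14055 measured genes. The 3 higher members are 4.62% of those measured, and 5.84% of all measured genes were at least 2-fold higher. The 1 lower member is 1.54%, and 5.98% of all measured genes were at least 2-fold lower. At 1.5-fold, 9 members (13.8%) were higher against a background of 15.7%, and 3 members (4.62%) were lower against a background of 13.5%. The higher shares are thus near the background at both thresholds, and the lower shares are below it.

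Members lay slightly towards the Cpdm side. The median log2 ratio was 0.12 over the 65 measured members and 0.03 over all measured genes. The middle 50% of members ran from -0.23 to 0.35, and the middle 50% of all genes ran from -0.32 to 0.38. Of the measured members 39 (60.0%) were above 0, and 52.4% of all measured genes were. In all, 53 members (81.5%) lay within 1.5-fold, where 70.8% of all measured genes lay. Within 1 probe set SD of 0 lay 33 members, a count that was not made over all genes and so has no background. In an unsorted culture, fewer cells of a type and less RNA per cell cannot be told apart.

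**Figure D1:**
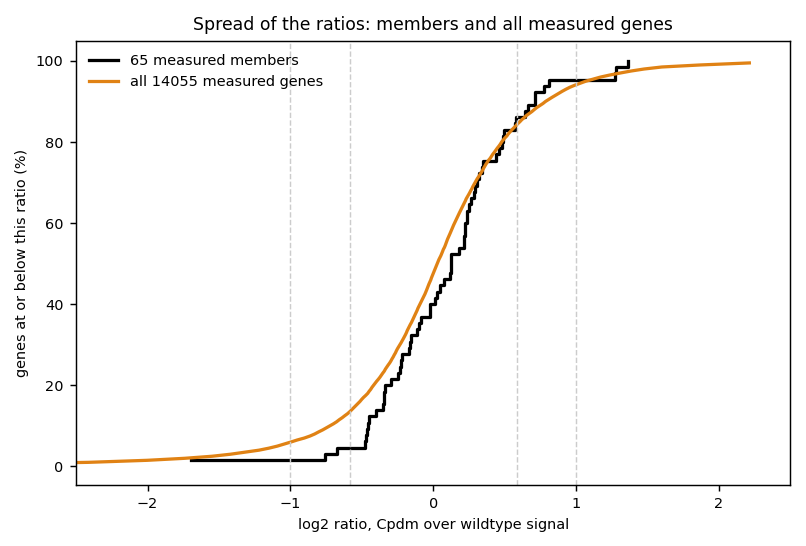
Cumulative share of genes (vertical axis, %) at or below each log2 ratio of Cpdm over wildtype signal (horizontal axis), for 65 measured members (black steps) and all 14055 measured genes (orange line, drawn between its 0.5 and 99.5 percentiles). Dashed lines mark 1.5-fold and 2-fold; the black line runs right of the orange one over the left side of the plot, where 3 members lie at or below 1.5-fold lower.

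Cell type markers differed between the cultures beside these values. Of 12 macrophage markers, all measured, 4 passed 2-fold upwards in Cpdm and none passed it downwards. Lyz2 alone was lower, at 2657 in Cpdm and 3507 in wildtype. The summed signal of all 12 was 21158 in Cpdm and 15758 in wildtype. Of 11 osteoblast markers 7 had a usable probe set, 6 of those were at least 2-fold lower, and their summed signal was 4910 in Cpdm and 14748 in wildtype, with Phex below the floor in Cpdm. The 7 stromal markers summed to 9253 in Cpdm and 4851 in wildtype, with 3 at least 2-fold higher. The 7 measured proliferation markers summed to 2583 in Cpdm and 1896 in wildtype, and Mki67 alone was at least 2-fold higher. Markers of B cells, T and NK cells, neutrophils and adipocytes had summed signals of 115, 172, 96.9 and 513 in Cpdm, against 128, 48.7, 157 and 603 in wildtype, and the T and NK sum was mostly Cd4, at 147 in Cpdm and 18.4 in wildtype, while Cd3e read 25.7 in Cpdm and 30.4 in wildtype. Cd79a, Cd3g, Nkg7, Camp and Elane were below the floor in each array. Xist, made by cells with an inactive X chromosome, was 4.51-fold higher in Cpdm by its brightest probe set. On the Y chromosome, Uty was 3.77-fold, Eif2s3y 3.09-fold and Kdm5d 3.08-fold lower. The part of any of these in the deubiquitinase values was not tested.

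Usp21 and Usp54 were the USP genes with the largest differences. Usp21, which removes ubiquitin from histones and from the TNF receptor adaptor kinase RIPK1, read 144 in Cpdm and 59.7 in wildtype, a 2.41-fold higher signal. Usp54, a little-studied USP gene, read 68.9 in Cpdm and 28.5 in wildtype, 2.42-fold higher. Each is represented by 1 probe set, so neither value has a second reading within the array, and with a pseudocount of 16 in place of the floor Usp54 had a log2 ratio of 0.93, under 2-fold. Uchl1, an abundant ubiquitin hydrolase of neurons, read 48.1 in Cpdm and 11.7 in wildtype, below the floor there, which gives a fold of at least 2.57, again by 1 probe set.

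Otub2 was the lower member past 2-fold. It belongs to the OTU family, and its brighter probe set read 12.6 in Cpdm, below the floor, and 60.0 in wildtype, which is at least 3.25-fold lower. Its other probe set read 22.3 in Cpdm and 26.9 in wildtype, a log2 ratio of -0.27. The 2 readings share a direction and differ in size by more than the probe set SD, and the 2-fold call rests on the brighter one.

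The start regions of these 4 genes are shown because they are the members past 2-fold. Each runs from 250 bases before to 50 bases after a transcription start in RefSeq, build GRCm38.p6, read 5′ to 3′ along the gene. Usp21 is at chr1:171287912-171288211 on the minus strand, Usp54 at chr14:20618305-20618604 on the minus strand and Uchl1 at chr5:66675871-66676170 on the plus strand. Otub2 has starts apart from each other at chr12:103376644-103376943 and chr12:103388431-103388730, both on the plus strand. Capitals mark matches on either strand to the GC box GGGCGG, the cyclic AMP response core TGACGT or the AP-1 letters TGANTCA; an NF-κB consensus was searched too, and its matches can overlap a GC box.
Usp21: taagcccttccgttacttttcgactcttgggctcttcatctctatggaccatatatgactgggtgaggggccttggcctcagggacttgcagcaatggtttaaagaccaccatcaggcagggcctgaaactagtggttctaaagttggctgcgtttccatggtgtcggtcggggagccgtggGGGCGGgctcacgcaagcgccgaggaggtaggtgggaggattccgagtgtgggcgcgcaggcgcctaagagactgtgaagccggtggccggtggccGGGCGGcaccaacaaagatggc
Usp54: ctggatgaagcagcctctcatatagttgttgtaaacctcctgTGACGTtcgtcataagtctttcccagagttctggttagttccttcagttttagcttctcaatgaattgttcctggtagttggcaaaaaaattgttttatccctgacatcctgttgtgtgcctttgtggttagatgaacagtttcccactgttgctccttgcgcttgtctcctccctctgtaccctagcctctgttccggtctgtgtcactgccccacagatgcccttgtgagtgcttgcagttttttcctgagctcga
Uchl1: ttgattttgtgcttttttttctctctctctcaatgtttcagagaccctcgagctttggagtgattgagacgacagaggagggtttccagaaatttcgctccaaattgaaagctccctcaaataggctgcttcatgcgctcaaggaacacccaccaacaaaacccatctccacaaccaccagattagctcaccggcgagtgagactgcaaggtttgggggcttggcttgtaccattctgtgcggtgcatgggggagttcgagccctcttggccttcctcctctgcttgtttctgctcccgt
Otub2 upstream start: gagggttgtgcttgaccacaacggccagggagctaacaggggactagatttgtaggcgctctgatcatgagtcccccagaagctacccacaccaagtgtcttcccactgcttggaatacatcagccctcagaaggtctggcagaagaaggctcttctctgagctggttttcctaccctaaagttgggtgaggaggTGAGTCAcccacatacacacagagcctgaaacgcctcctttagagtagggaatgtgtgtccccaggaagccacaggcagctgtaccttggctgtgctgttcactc
Otub2 downstream start: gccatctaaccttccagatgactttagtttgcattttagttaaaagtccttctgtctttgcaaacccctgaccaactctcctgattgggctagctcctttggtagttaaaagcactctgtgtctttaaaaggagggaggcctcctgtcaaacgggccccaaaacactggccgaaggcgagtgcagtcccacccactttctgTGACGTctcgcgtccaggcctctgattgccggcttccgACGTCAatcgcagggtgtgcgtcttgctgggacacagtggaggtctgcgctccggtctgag

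The Usp21 window held 2 GC boxes, the Usp54 window 1 TGACGT core, the upstream Otub2 window 1 AP-1 match, the downstream Otub2 window 2 TGACGT cores, and the Uchl1 window none of the 4 motifs. No window matched the NF-κB consensus. RefSeq windows were found for 56 of the 70 members, and a gene was counted if any of its starts held the motif. The GC box stood in 66.1% of these members, in 63.7% of measured genes with a window and in 38.2% of all genes with one. TGACGT stood in 23.2% of members, 12.2% of measured genes and 8.37% of all genes. TGANTCA stood in 12.5%, 6.94% and 8.97%, and the NF-κB consensus in 3.57%, 12.2% and 9.55%. Member windows had a median of 25 CG dinucleotides, and windows of measured genes had a median of 18. The shown windows, with 3 to 18 each, all lie below that member median. A match describes letters only and says nothing of binding.

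The remaining USP genes past 1.5-fold were all higher in Cpdm. Usp9x, which acts on proteins such as SMAD4, had 6 probe sets that passed the floor on each array, and all 6 were higher, with log2 ratios between 0.10 and 0.86. Its brightest probe set read 279 in Cpdm and 159 in wildtype, 1.75-fold higher. Usp24 read 188 in Cpdm and 121 in wildtype, and its 3 readings ran from 0.64 to 0.99. Usp30, which sits on the outer mitochondrial membrane and opposes the removal of damaged mitochondria, read 86.2 in Cpdm and 54.3 in wildtype, with 47.0 and 26.5 by its second probe set. These 3 genes had every reading on the same side, but their calls lie close to 1.5-fold: Usp9x had 0.58 with the mean over probe sets, and with the pseudocount Usp24 had 0.58 and Usp30 0.54, all below it. Usp13, which acts in autophagy and protein quality control, read 32.1 in Cpdm and 18.3 in wildtype, just below the floor; its bound of 1.71-fold shrank to a log2 ratio of 0.38 when both of its probe sets were averaged and to 0.19 with a floor at the 50th percentile.

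**Figure D2:**
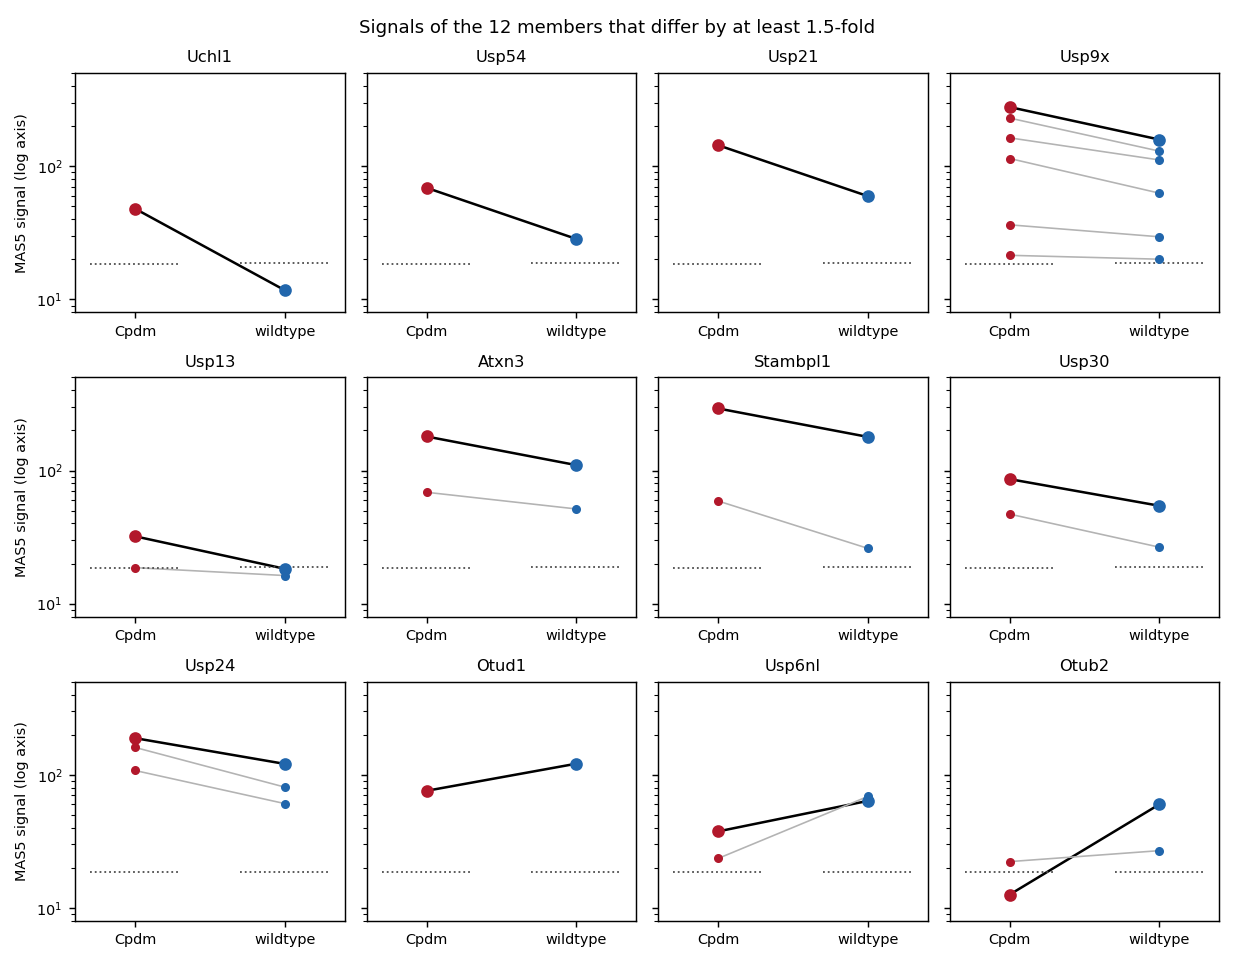
MAS5 signals on a log axis in Cpdm (red) and wildtype (blue) for the 12 members past 1.5-fold, with 1 line per probe set; the black line is the brightest probe set, grey lines are others, and dotted lines are the floors. Uchl1 and Usp13 lie below the floor in wildtype, and the brighter Otub2 probe set lies below it in Cpdm.

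By brightest probe sets the rest of the USP family lay within 1.5-fold. Of 48 USP genes 44 were measured, 29 of them above 0, with a median log2 ratio of 0.20. Usp2, which acts on MDM2 and the circadian clock, came closest to the threshold at 107 in Cpdm and 71.6 in wildtype, 1.49-fold higher, and its other probe set passed 2-fold at 97.4 in Cpdm and 42.0 in wildtype. Usp32 and Usp34, both large USP proteins, followed with log2 ratios of 0.49 each. Usp34 acts on Axin in Wnt signalling, and its signal was 482 in Cpdm and 344 in wildtype. On the lower side no USP gene reached 1.5-fold by its brightest probe set. Usp28, a regulator of MYC stability, had the lowest ratio at 81.8 in Cpdm and 114 in wildtype, and Usp36, Usp31, Usp49 and Usp46 had log2 ratios between -0.47 and -0.40. Dimmer probe sets passed 1.5-fold downwards in Usp1, at 32.6 in Cpdm and 57.5 in wildtype, and in Usp3 and Usp7, described below. Usp38 was nearest to 0, at 75.1 in Cpdm and 76.1 in wildtype. Usp47, which acts on a DNA repair polymerase, read 443 in Cpdm and 430 in wildtype, and Usp5, which takes apart free ubiquitin chains, read 376 in Cpdm and 356 in wildtype. Usp39, a splicing factor without protease activity, read 163 in Cpdm and 207 in wildtype. Usp12, which is activated by the same WD-repeat protein as Usp46, read 159 in Cpdm and 179 in wildtype. Usp4, Usp10, Usp20, Usp25, Usp33, Usp42, Usp45 and Usp53 had log2 ratios between 0.12 and 0.28 by their brightest probe sets. A dimmer probe set of Usp4 read 37.5 in Cpdm and 24.5 in wildtype, 1.53-fold higher, and one of Usp53 had a log2 ratio of 0.58. Usp43 read 19.2 in Cpdm and 24.4 in wildtype, close to the floor, and Usp29, Usp17la and Usp27x passed the floor in Cpdm but not in wildtype, at 19.0, 25.8 and 26.2. Usp26, Usp44, Usp50 and Usp9y were below it in both arrays.

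Further USP genes had several readings. Usp14, the USP bound to the proteasome, had 4 readings, all higher in Cpdm, from 0.12 to 0.98; its brightest read 567 in Cpdm and 446 in wildtype. Usp48 had 3 readings, all higher, between 0.31 and 0.55. Usp3, which acts on histones, had 4 readings past the floor on each array, all lower, between -0.59 and -0.16. A further Usp3 probe set, below the floor in Cpdm, was at least 1.56-fold lower. Usp7, which controls MDM2 and p53, could not be given a direction. Its brightest probe set read 358 in Cpdm and 400 in wildtype, 4 others were higher in Cpdm with log2 ratios up to 0.49, and 1 was lower at -0.98. Usp15, Usp40 and Usp31 also had readings past the floor on each array on both sides of 0. The lowest and highest of these were -0.18 and 0.44 for Usp15, -0.37 and 0.42 for Usp40 and -0.46 and 0.41 for Usp31. Usp15 had further probe sets below the floor in wildtype alone, at least 2.42-fold and at least 1.57-fold higher in Cpdm. Usp22, the deubiquitinase of the SAGA coactivator, and Usp8, which acts on endosomes, had a brighter reading above 0, at 0.32 and 0.34, and a dimmer one below 0, at -0.58 and -0.23. Usp19 and Usp37 each had readings on both sides within 0.27 of each other.

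All 12 OTU genes were measured, 5 above and 7 below 0, with a median log2 ratio of -0.06, and none was at least 1.5-fold higher. The difference between the OTU and USP families was not tested. Beside Otub2, Otud1 passed 1.5-fold, at 75.7 in Cpdm and 121 in wildtype. Otud7b, also called Cezanne and known to restrain NF-κB, had 4 readings, all lower in Cpdm, between -0.43 and -0.22. Zranb1, which acts in Wnt signalling, had 3 readings, all lower, between -0.41 and -0.23. Yod1, a partner of the VCP ATPase in the disposal of misfolded proteins, was lower by both of its measured probe sets, at -0.30 and -0.24. These differences lie near the SD of a probe set. The readings of each gene share a sign but come from the same 2 arrays.

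Otub1 was the member whose readings disagreed most. It binds the conjugating enzyme UBE2N and blocks it without cutting a chain. Its brighter probe set by mean read 174 in Cpdm and 184 in wildtype, while its other probe set read 59.4 in Cpdm and 212 in wildtype, a log2 ratio of -1.84. Otud4 had readings from -0.92 to 0.21, Otud7a from -0.08 to 0.58, and Otud3 had 0.01 by its brighter probe set and -0.47 by the other. Otud5, a restraint on interferon production, was higher by all 3 readings, between 0.22 and 0.34. Otud6b read 411 in Cpdm and 376 in wildtype, and Vcpip1, which helps rebuild the Golgi after division, read 207 in Cpdm and 211 in wildtype.

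**Figure D3:**
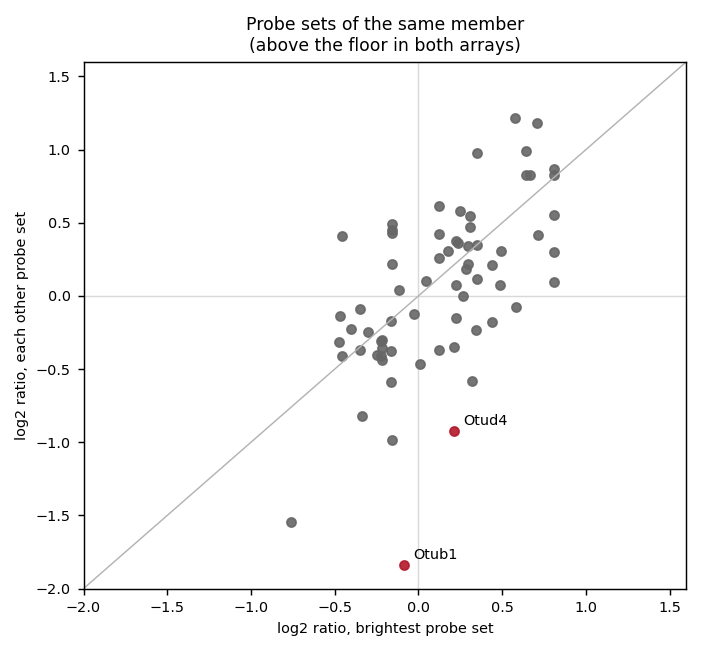
Log2 ratio of each other probe set (vertical axis) against that of the brightest probe set (horizontal axis) for the 43 members with several probe sets that pass the floor on each array; the diagonal marks equal ratios. Red points, Otub1 and Otud4, differ by at least 1 log2 unit from the brightest probe set.

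Several readings of a member come from the same 2 arrays, so they do not repeat the comparison of the cultures. Of 43 members with several readings past the floor on each array, 17 had all readings higher in Cpdm, 14 had all readings lower and 12 had both signs. The same count was not made over all genes, so these shares have no background. The distance between the lowest and highest reading had a median of 0.34 log2 units, and reached 1.5-fold in 12 members and 2-fold in 3, Otub1, Usp7 and Otud4. Wdr48, the activator of USP1, USP12 and USP46 among the partners below, disagreed as much, with readings from -1.21 to 0.03.

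The smaller families each held members on both sides of 0. In the UCH family, Bap1, a tumour suppressor that acts on histones, was lower by both probe sets, at 170 in Cpdm and 237 in wildtype for the brighter. Uchl5, bound to the proteasome, read 232 in Cpdm and 198 in wildtype, and Uchl4 did not reach the floor on either array. In the Josephin family, Atxn3, whose human form carries the repeat of Machado-Joseph disease, read 180 in Cpdm and 110 in wildtype, 1.64-fold higher, and 68.6 in Cpdm and 51.4 in wildtype by its second probe set; the mean of both, 0.57, is under 1.5-fold. Josd2 read 156 in Cpdm and 167 in wildtype. In the JAMM family, the endosomal enzymes Stambpl1 and Stambp differed in sign. Stambpl1 read 292 in Cpdm and 179 in wildtype, 1.64-fold higher, and its dimmer probe set had a log2 ratio of 1.18, whereas Stambp had log2 ratios of -0.35 and -0.37. Brcc3, the JAMM enzyme of DNA repair complexes, had 4 readings between -0.15 and 0.38. Usp6nl, no deubiquitinase, was lower by both readings, at 37.5 in Cpdm and 63.6 in wildtype and with a log2 ratio of -1.55 by the other.

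**Figure D4:**
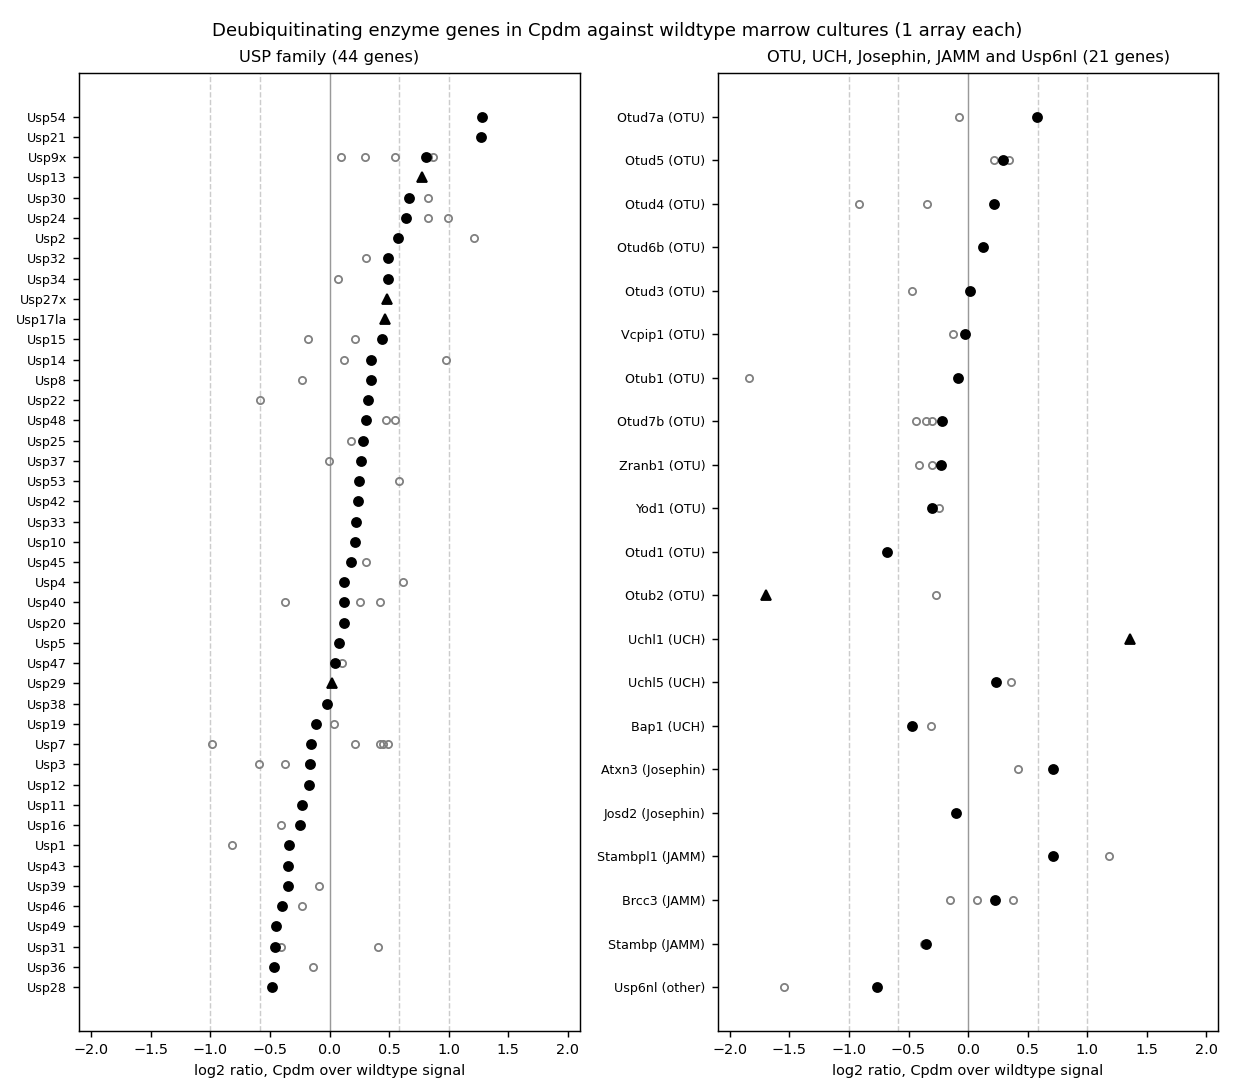
Log2 ratio of Cpdm over wildtype signal (horizontal axis) for each of the 65 measured members, by family; filled points are the brightest probe set, triangles are bounds with 1 array below the floor, and open points are further probe sets that pass the floor on each array. Dashed lines mark 1.5-fold and 2-fold; 29 of 44 USP genes and 5 of 12 OTU genes lie right of 0.

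Because the cultures differed in sex-linked transcripts, the X- and Y-linked members are given together. Of 6 X-linked members 5 were measured. By brightest probe sets Usp9x, Otud5, Brcc3 and Usp27x were above 0 and Usp11, at 38.9 in Cpdm and 45.7 in wildtype, was below. Of 449 measured X-linked genes 57.5% were above 0, with a median log2 ratio of 0.07. Brcc3 also had a dimmer reading at -0.15, and Usp27x was below the floor in wildtype. Among the measured X-linked members Usp9x alone passed 1.5-fold, and 17.6% of the measured X-linked genes did in the same direction. Y-linked Usp9y read 14.8 in Cpdm and 5.90 in wildtype, below the floor in both. The part of sex-linked expression in the Usp9x values was not tested.

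Sorted by role, members went both ways in most lists. The 18 members linked to TNF and NF-κB signalling had a median log2 ratio of 0.12, with Usp21 at least 1.5-fold higher and Otub2 and Otud1 at least 1.5-fold lower. The 12 measured members acting on histones had a median of -0.17, with Usp21 the only one past 1.5-fold and 4 above 0. Those of DNA repair and the cell cycle had a median of -0.16 over 14 genes, with Usp13 at least 1.5-fold higher and Otub2 at least 1.5-fold lower; Usp1, which acts on repair proteins and PCNA, read 268 in Cpdm and 339 in wildtype, and Usp16, active in mitosis, 197 in Cpdm and 235 in wildtype. The 8 members of the proteasome and of quality control at the endoplasmic reticulum had a median of 0.26, with Usp13 and Atxn3 past 1.5-fold. The 7 measured members of endosomes and mitochondria had a median of 0.34, with Usp30 and Stambpl1 past it. The 10 members reported in BMP, TGF-β or Wnt signalling had a median of 0.18, with Usp9x past it, and the 12 acting on p53 or MDM2 had 0.10, with Otud1 alone past it. Some genes stand in several lists.

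Genes that work with the members were counted in the same way, against the background of 15.7% at least 1.5-fold higher and 13.5% at least 1.5-fold lower. Of 8 measured SAGA partners of Usp22, Kat2a and Atxn7l1 were at least 1.5-fold higher, with a list median of 0.06. Their readings ran from 0.26 to 0.86 for Kat2a and from 0.08 to 1.32 for Atxn7l1. Of 9 measured partners of Bap1, Hcfc1 and Mbd6 were at least 1.5-fold higher, with a median of 0.20. The readings of Hcfc1 disagreed, running from -0.68 to 0.60. Of 7 measured partners of Brcc3, Shmt2, a mitochondrial serine enzyme that also joins the BRCC3 complex, was at least 2-fold lower, at 206 in Cpdm and 441 in wildtype, although its readings ran from -1.22 to 0.50. No ESCRT partner of Stambp and Usp8 passed 1.5-fold among 9, and no proteasome or INO80 partner of Uchl5 did among 5. No WD-repeat activator of USP1, USP12 and USP46 did among 3, with a list median of 0.07. Of 11 measured VCP partners, Ubxn4 and Stub1 were at least 1.5-fold lower, with readings from -0.77 to -0.28 and from -0.63 to -0.15. In the ubiquitin-activating list 4 of 10 genes had a usable probe set, and Uba7, which activates the interferon-induced modifier ISG15, was 2.25-fold higher.

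Deubiquitinases outside the rule were set beside the members. The linear ubiquitin list held the complex that Sharpin belongs to, its regulators and Usp18. Of its 9 genes, 5 were at least 1.5-fold higher and none was at least 1.5-fold lower. Over all measured genes the shares were 15.7% and 13.5%. Usp18 was among the higher genes, at 96.9 in Cpdm and 60.6 in wildtype. The list median log2 ratio was 0.68, which is the value of Usp18, and 0.37 with the mean over the probe sets of each gene. Cyld and Tnfaip3, both of which shut off NF-κB signalling, read 215 and 188 in Cpdm, against 123 and 108 in wildtype. Their readings ran from 0.31 to 0.80 for Cyld and from 0.38 to 0.81 for Tnfaip3. Otulin, which cuts linear chains, read 200 in Cpdm and 203 in wildtype. The difference between that list and the members was not tested. Of 14 genes in other deubiquitinase and related families, Zup1 was at least 1.5-fold higher, Psmd7 and Mindy4 at least 1.5-fold lower and Mpnd 2.27-fold lower, with a median of 0.21.

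**Figure D5:**
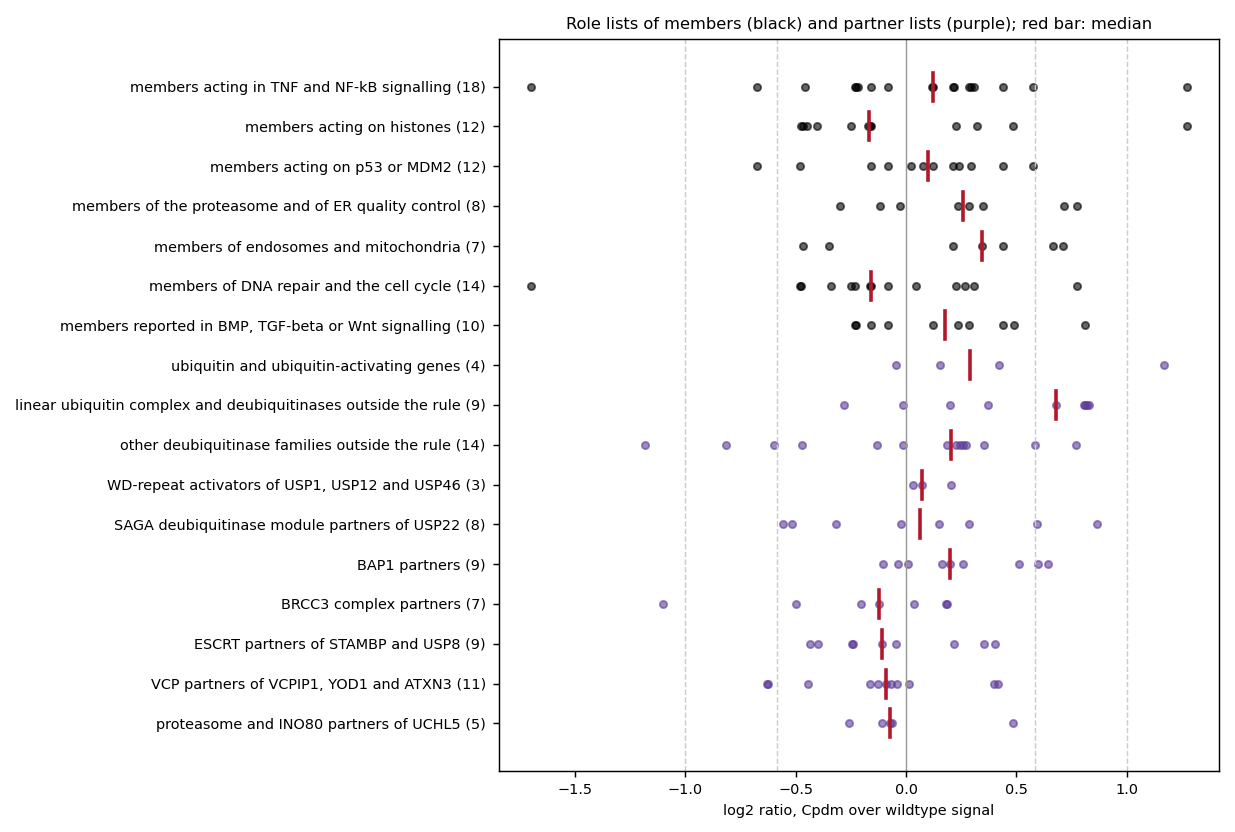
Log2 ratio of Cpdm over wildtype signal (horizontal axis) for each measured gene in 7 role lists of members (black points) and 10 lists of partners and other deubiquitinases (purple points), with the number measured in brackets and the median as a red bar. Medians of member lists lie between -0.17 and 0.34, and the linear ubiquitin list has a median of 0.68 by brightest probe sets and 0.37 with the mean over probe sets.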

How the data were processed

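Total RNA, 5 µg per culture, was biotin-labelled and hybridised to 1 Affymetrix array for Cpdm and 1 for wildtype, per the labels' protocols. The values deposited by the authors are MAS5 signal intensity on a linear scale for 45101 probe sets. The submitters' processing notes list GCOS 1.4 and MAS5; the sources used here state no scaling target, background setting or detection call. MAS5 scales each array by 1 factor, and its low signals are noisy. The number of arrays limits the precision.

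Leaving out controls, 45037 probe sets remained, and the platform annotation gave a single gene for 34945 of them. Values were used without further scaling in Python 3.11.15, numpy 2.4.6 and pandas 2.3.3, and figures were drawn with matplotlib 3.10.9. The floor, the brightest probe set per gene by mean log2 signal and the thresholds of 2-fold and 1.5-fold are as the results describe. The calculation was tested on simulated data with little noise and with large changes in bright genes only. That test covered neither the 1.5-fold threshold nor changed genes near the floor, so it lends the calls made here no support. Every member could be named. Signals, log2 ratios or a range of ratios are given for measured members past 1.5-fold or on the sex chromosomes. The same holds for those with at least 3 probe sets or readings at odds, and for the extremes of each family. The members and lists were chosen with earlier results of these data known. Probe sets ending in _s_at or _x_at can bind related transcripts, which makes their gene less certain. Promoter sequences are from RefSeq tables of GRCm38.p6.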

Additional observations from a re-analysis of the deposited data

How the results depend on the processing

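With 1 array per genotype no spread between cultures is known, and low MAS5 signals and single probe sets limit the members near the floor. Of the counts, 2-fold lower members numbered 3 without a floor (Usp26 and Usp50, both below the floor in each array, joined Otub2) and 0 when genes had to be above the floor in both arrays, against 1 as reported; 1.5-fold lower members numbered 7 without a floor and 1 with a pseudocount of 16, against 3 as reported. The counts of higher members stayed within 1.5 times in all 11 alternatives run, but single calls did not: with the pseudocount Usp54 dropped below 2-fold and Usp13, Usp24, Usp30, Otud1 and Usp6nl below 1.5-fold, and with the mean over probe sets Atxn3, Usp9x and Usp13 were below 1.5-fold (Atxn3 and Usp13 with the median too). The linear ubiquitin list had a median of 0.37 with the mean or median over probe sets, against 0.68 as reported. The median log2 ratio of the members ran from 0.07 with the mean over probe sets to 0.21 without probe sets ending in _s_at, _x_at or _a_at. For the 12 members past 1.5-fold no alternative reversed the sign; of 127 values, 15 moved by more than the probe set SD. Otub2 had a bound of -0.99 with the mean over probe sets, so it was not called there while Usp6nl passed 2-fold, and Uchl1 had a bound of 0.78 with a floor at the 50th percentile. Without probe sets ending in _s_at, _x_at or _a_at Usp21 had no value and Stambpl1 passed 2-fold. Family medians kept their sign except that of UCH, which ran from -0.12 to 0.30. Leaving out Usp6nl, an alternative chosen after seeing the data, left 64 members with a median of 0.12. Of those, 2 (3.1%) were at least 1.5-fold lower, against 3 as reported. No paired analysis was possible because each genotype has 1 array.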
